A study of Homo sapiens with 12 samples.

Results

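The RNAs of 9 enzymes and cofactors that write, copy and erase DNA methylation were described in human embryonal carcinoma cells after knock-down of SOX2. The rule names the genes and uses no measured value, but the choice was made with earlier results of these data known: DNMT1, UHRF1, DNMT3A, DNMT3B, DNMT3L, TET1, TET2, TET3 and TDG. All 9 were measured, out of 18404 genes that the array names by a probe set assigned to 1 gene. They had 11 probe sets, because TET2 and UHRF1 had 2 each, and the probe set with the higher mean stood for the gene.

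DNA methylation in mammals sits mainly on cytosines that are followed by guanine (CG sites). DNMT1 copies the mark onto the new strand after replication, and UHRF1 brings it there by binding hemimethylated sites. DNMT3A and DNMT3B set the mark at new sites, and DNMT3L, which has no catalytic activity of its own, stimulates both and is known from germ cells and pluripotent cells. The TET enzymes oxidise methylcytosine, and TDG is a glycosylase that cuts out the oxidised bases so that base excision repair can restore an unmethylated cytosine. Pluripotent cells are known for high DNMT3B, DNMT3L and TET1. The arrays measured RNA only, so neither enzyme activity nor DNA methylation was measured.

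Both lines derive from human embryonal carcinoma, the stem cell component of teratocarcinoma: NTera-2 is pluripotent, and 2102Ep, named nullipotent, barely differentiates when given retinoic acid. The 4 groups of 3 arrays each were NTera-2 cells given an siRNA against SOX2 (siSOX2), NTera-2 cells given a non-targeting siRNA (Silencer Select Negative Control), 2102Ep cells given siSOX2, and 2102Ep cells given the same non-targeting siRNA. All 12 samples were exposed to siRNA and lipid for 6 hours and harvested 72 hours later. The lipid was Lipofectamine RNAiMAX in NTera-2 and Lipofectamine 2000 in 2102Ep, and the siRNA amount differed as well, so line, lipid and amount cannot be told apart. No other siRNA against SOX2 was profiled here, hence loss of SOX2 and other actions of this siRNA cannot be told apart either. The replicates are labelled biological.

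Promoters of the enzymes were taken from RefSeq (GRCh38.p14) as the stretch from 250 bases before to 50 bases after each listed start, and 8 of the 9 genes had at least 1 entry, 19 promoters in all. DNMT1 and UHRF1 lie on chromosome 19, DNMT3A and TET3 on chromosome 2, DNMT3B on chromosome 20, TET1 on chromosome 10, TET2 on chromosome 4 and TDG on chromosome 12. DNMT3L is named only. Shown here are the first listed starts of 3 enzymes whose RNA changed after siSOX2, TET1 at chr10:68560087-68560386, TET2 at chr4:105145625-105145924 and DNMT3B at chr20:32779602-32779901, all on the plus strand, with CG sites in capitals.
TET1 promoter: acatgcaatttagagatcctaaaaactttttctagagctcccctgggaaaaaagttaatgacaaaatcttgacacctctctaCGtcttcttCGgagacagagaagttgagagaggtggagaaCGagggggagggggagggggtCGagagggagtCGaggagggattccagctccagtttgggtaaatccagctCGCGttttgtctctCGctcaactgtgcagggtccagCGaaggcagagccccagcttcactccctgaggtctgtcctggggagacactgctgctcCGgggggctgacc
TET2 promoter: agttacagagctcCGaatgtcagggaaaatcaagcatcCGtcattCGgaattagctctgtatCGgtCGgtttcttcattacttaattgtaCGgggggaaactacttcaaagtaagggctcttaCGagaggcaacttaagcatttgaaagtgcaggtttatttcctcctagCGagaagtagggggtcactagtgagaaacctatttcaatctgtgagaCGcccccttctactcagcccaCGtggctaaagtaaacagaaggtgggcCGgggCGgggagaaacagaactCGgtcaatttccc
DNMT3B promoter: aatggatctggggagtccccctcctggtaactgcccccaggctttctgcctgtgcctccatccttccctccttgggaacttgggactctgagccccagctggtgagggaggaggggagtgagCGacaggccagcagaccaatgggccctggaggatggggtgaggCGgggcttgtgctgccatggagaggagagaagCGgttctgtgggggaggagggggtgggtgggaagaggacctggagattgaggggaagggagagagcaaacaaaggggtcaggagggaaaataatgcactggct
These stretches hold 10, 13 and 3 CG sites in the same order, against a median of 14 over the 35116 promoters of the table. The DNMT3B stretch is the only listed entry for that gene, so any other DNMT3B start is not covered. Which starts were used in these cells was not measured. The starts of other enzymes were richer, with 30 CG sites at DNMT1, 36 to 46 at UHRF1 and 33 to 45 at TET3. UHRF1 was also called as changed after siSOX2, so a low CG count was not shared by all enzymes that changed. Another TET2 start at chr4:105146626-105146925 held 35. The hexamers ACAAAG and ACAATG, forms of the SOX core motif, were searched on both strands. An ACAAAG begins at base 266 of the DNMT3B stretch, and the TET1 and TET2 stretches above hold neither. A later TET1 start, not shown, at chr10:68600224-68600523 holds both on the opposite strand, ACAAAG at base 254 and ACAATG at base 135. In total 5 of the 19 enzyme promoters held at least 1 of the hexamers, 3 of them overlapping DNMT3A starts, and 24.5% of all promoters did so (16.1% for ACAAAG, 10.8% for ACAATG). These matches are descriptions of letters and not binding sites.

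SOX2 was checked first, because its RNA is the target of the siRNA. Its log2 signal was 9.17, 9.30 and 8.80 on the 2102Ep siSOX2 arrays, against 12.28, 12.21 and 12.20 on the 2102Ep control arrays. In NTera-2 it was 11.92, 11.95 and 11.86 after siSOX2, against 12.51, 12.52 and 12.63 in controls. The RNA that remained was 11.4% of control in 2102Ep (95% interval 9.59 to 13.5%) and 64.0% in NTera-2 (53.9 to 75.9%), and the loss was larger in 2102Ep (difference of the log2 changes -2.49 ± 0.17, SE, adjusted p = 4.87e-08). Over all probe sets, r was 0.9825 to 0.9943 between arrays of 1 group and 0.9485 to 0.9723 between arrays of different lines. Besides SOX2, 11 embryonal carcinoma markers were measured, with a mean log2 signal per array of 10.21 to 11.37, while POU5F1 and NANOG are not analysed here. The pluripotency marker ZFP42 differed between the lines, with 5.26 to 5.60 in NTera-2 siSOX2 cells and 5.48 to 5.94 in NTera-2 controls, against 9.20 to 9.35 in 2102Ep siSOX2 cells and 9.61 to 9.95 in 2102Ep controls. Leukocyte markers (4 measured of 5) averaged 5.20 to 5.47 on every array.

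After siSOX2 in 2102Ep cells, 3 of the 9 enzymes fell and 2 rose. TET1 fell to 57.1% of control, DNMT3L to 66.6% and DNMT3B to 68.0%, whereas TET2 rose 1.73-fold and UHRF1 1.4-fold. DNMT1, DNMT3A, TET3 and TDG did not pass an adjusted p of 0.05. In NTera-2 cells TET2 alone among the 9 passed, with a rise of 1.66-fold. No enzyme changed 2-fold in either line.

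Beside all genes, 5 of 9 enzymes changed in 2102Ep, where 12.7% of all genes did (6.76% up, 5.9% down). Since these enzymes were picked with earlier results known, the counts are descriptions and no test of the group. In NTera-2 1 of 9 changed, with 4.94% of all genes (2.96% up, 1.98% down). The arrays of both groups did not overlap for 5 enzymes in 2102Ep, beside 25.2% of all genes, and for 1 enzyme in NTera-2, beside 21.3%. A change that also reached 2-fold was seen in 1.98% of all genes in 2102Ep and in 0.657% in NTera-2. The median log2 change of the 9 was 0.0041 in 2102Ep and 0.040 in NTera-2, beside medians over all genes of -0.010 and 0.043.

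**Figure D1:**
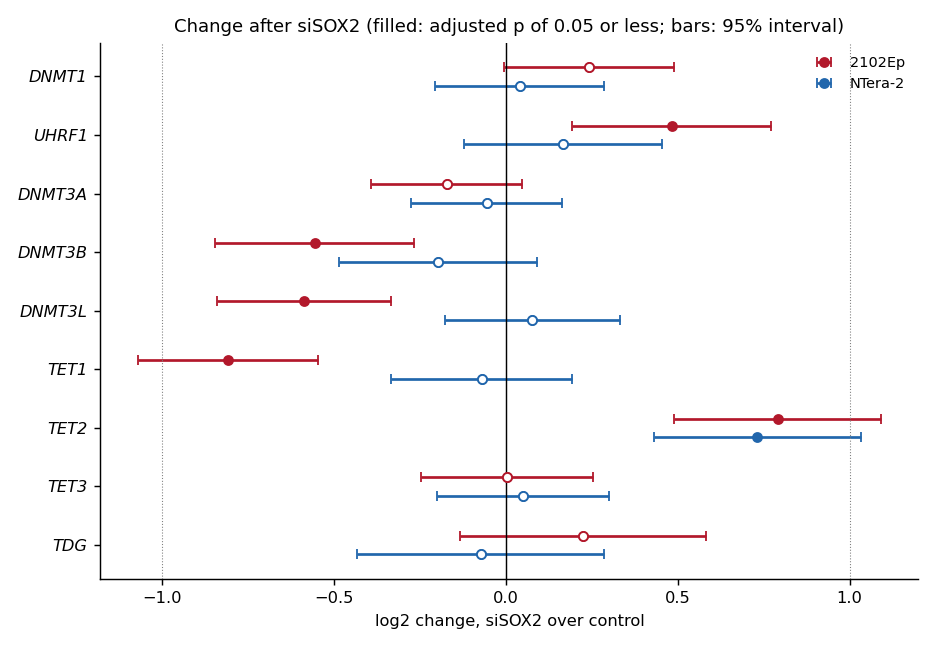
Log2 change (horizontal axis, siSOX2 over control) of each enzyme (rows) in 2102Ep (red) and NTera-2 (blue), with its 95% interval; filled points passed an adjusted p of 0.05 and dotted lines mark a 2-fold change. In 2102Ep, TET1, DNMT3L and DNMT3B lie left of 0 at -0.81, -0.59 and -0.56, and in NTera-2 the only filled point is TET2 at 0.73.

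Maintenance methylation depends on DNMT1 and UHRF1. DNMT1 had a log2 signal of 11.30, 11.29 and 11.21 on the 2102Ep siSOX2 arrays, against 11.26, 10.81 and 11.01 on the controls. A control array lay among the siSOX2 arrays, and the change of 0.24 ± 0.12 (log2, SE; 95% interval -0.0049 to 0.49) did not pass (adjusted p = 0.229). In NTera-2 DNMT1 read 11.53, 11.31 and 11.58 after siSOX2, against 11.40, 11.42 and 11.48 in controls, an estimate of 0.040 ± 0.12 (adjusted p = 0.940).

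UHRF1, the reader that recruits DNMT1, rose in 2102Ep. Its signal was 9.86, 9.80 and 9.70 after siSOX2, against 9.55, 9.08 and 9.28 in controls, and every siSOX2 array lay above every control array (0.48 ± 0.14, adjusted p = 0.0254). In NTera-2 it read 9.51, 9.39 and 9.89 after siSOX2, against 9.41, 9.34 and 9.55 in controls (0.17 ± 0.14, adjusted p = 0.673). The rise in 2102Ep was seen on 1 of the 2 UHRF1 probe sets. The dimmer one gave 6.87, 6.69 and 7.05 after siSOX2, against 6.81, 6.93 and 6.90 in controls, a change of -0.0092 ± 0.11 (adjusted p = 0.979 over probe sets). With the mean of both probe sets the estimate was 0.24 (adjusted p = 0.169), and the call was also lost without 2102Ep control replicate 2 (0.37, adjusted p = 0.110) or 3 (0.47, adjusted p = 0.0528). The same held for 2102Ep siSOX2 replicate 1 (0.45, adjusted p = 0.0979) or 2 (0.47, adjusted p = 0.0775).

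Of the de novo enzymes, DNMT3B was called in 2102Ep and DNMT3A was not. Both estimates there were below 0, and the enzymes were not tested against each other. DNMT3A, which methylates new sites in most tissues, read 9.16, 9.23 and 9.11 on 2102Ep siSOX2 arrays, against 9.42, 9.13 and 9.46 on controls (-0.17 ± 0.10, adjusted p = 0.369). In NTera-2 it read 9.12, 9.06 and 9.14 after siSOX2, against 9.11, 9.16 and 9.21 in controls (-0.056 ± 0.10, adjusted p = 0.889). It was the steadiest of the 9, with a range of 0.40 on the log2 scale over the 12 arrays.

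DNMT3B, the de novo enzyme of early embryonic and pluripotent cells, fell in 2102Ep. Its signal was 11.47, 11.35 and 11.28 after siSOX2, against 12.10, 11.62 and 12.05 in controls, and all siSOX2 arrays lay below the lowest control array (-0.56 ± 0.14, adjusted p = 0.0101). The call was just lost when 2102Ep control replicate 1 was left out (-0.47, adjusted p = 0.0529), and likewise for 2102Ep siSOX2 replicate 3 (-0.51, adjusted p = 0.0515). In NTera-2 DNMT3B read 11.51, 11.38 and 11.67 after siSOX2, against 11.64, 11.94 and 11.58 in controls, with overlapping arrays (-0.20 ± 0.14, adjusted p = 0.596). The difference between these responses did not pass (-0.36, 95% interval -0.77 to 0.049, adjusted p = 0.440).

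DNMT3L, the cofactor of the de novo enzymes, fell as well in 2102Ep, with 9.40, 9.60 and 9.12 after siSOX2, against 9.96, 9.93 and 9.98 in controls (-0.59 ± 0.12, adjusted p = 0.00255). The 3 controls lay close together and above every siSOX2 array. In NTera-2 its signal was much lower than in 2102Ep in both groups, with 7.01, 6.90 and 7.10 after siSOX2, against 7.01, 6.77 and 6.99 in controls (0.077 ± 0.12, adjusted p = 0.857). The deposited values carry no detection call, so it cannot be said here whether DNMT3L RNA is present in NTera-2.

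Among the enzymes that oxidise methylcytosine, TET1 and TET2 moved in opposite directions in 2102Ep. TET1, the TET enzyme typical of pluripotent cells, read 9.60, 9.73 and 9.47 after siSOX2, against 10.61, 10.18 and 10.43 in controls. The groups were well apart, and the change of -0.81 ± 0.12 (adjusted p = 0.000188) had the largest estimate among the 9 enzymes in that line, with TET2 close behind in the other direction. In NTera-2 TET1 read 10.09, 10.09 and 10.13 after siSOX2, inside the control range of 9.97, 10.34 and 10.21 (-0.070 ± 0.12, adjusted p = 0.882).

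TET2, an enzyme best known from blood cells, rose in both lines. In 2102Ep it read 7.54, 7.15 and 7.08 after siSOX2, against 6.36, 6.54 and 6.51 in controls (0.79 ± 0.14, adjusted p = 0.000833). In NTera-2 it read 8.82, 8.77 and 8.74 after siSOX2, against 7.81, 8.38 and 7.95 in controls (0.73 ± 0.14, adjusted p = 0.00419). In each line all siSOX2 arrays lay above all controls, and the 2 changes differed by 0.059 with a 95% interval of -0.37 to 0.49 (adjusted p = 0.963). The 2102Ep control signals lay below 6.73, the lower quartile of the mean signals of all genes. Without detection calls, the rise in 2102Ep and its likeness to NTera-2 compare signals and not exact ratios of RNA. The dimmer TET2 probe set rose as well, by 0.51 ± 0.12 in 2102Ep (adjusted p = 0.00791) and by 0.55 ± 0.12 in NTera-2 (adjusted p = 0.0108). On that probe set the 2102Ep arrays read 6.47, 6.5 and 6.39 after siSOX2, against 6.13, 5.70 and 5.99 in controls, and the NTera-2 arrays read 7.58, 7.44 and 7.67 after siSOX2, against 6.87, 7.08 and 7.08 in controls.

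TET3, known for oxidising the paternal genome in the zygote, stayed near its control level in both lines, with 8.62, 8.48 and 8.26 after siSOX2 against 8.59, 8.24 and 8.52 in 2102Ep controls (0.0041 ± 0.12, adjusted p = 0.991). In NTera-2 it read 9.20, 9.39 and 9.25 after siSOX2, against 9.16, 9.30 and 9.24 in controls (0.050 ± 0.12, adjusted p = 0.920). TDG, the glycosylase downstream of the TET enzymes, had the widest spread within groups of the 9. It read 8.19, 8.59 and 8.56 in 2102Ep after siSOX2, against 8.51, 8.36 and 7.79 in controls (0.23 ± 0.17, adjusted p = 0.501). In NTera-2 its signal was 8.73, 8.31 and 8.42 after siSOX2, against 8.74, 8.45 and 8.49 in controls (-0.073 ± 0.17, adjusted p = 0.915). The 95% intervals allow a change of -0.13 to 0.58 for TDG in 2102Ep and of -0.43 to 0.28 in NTera-2.

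**Figure D2:**
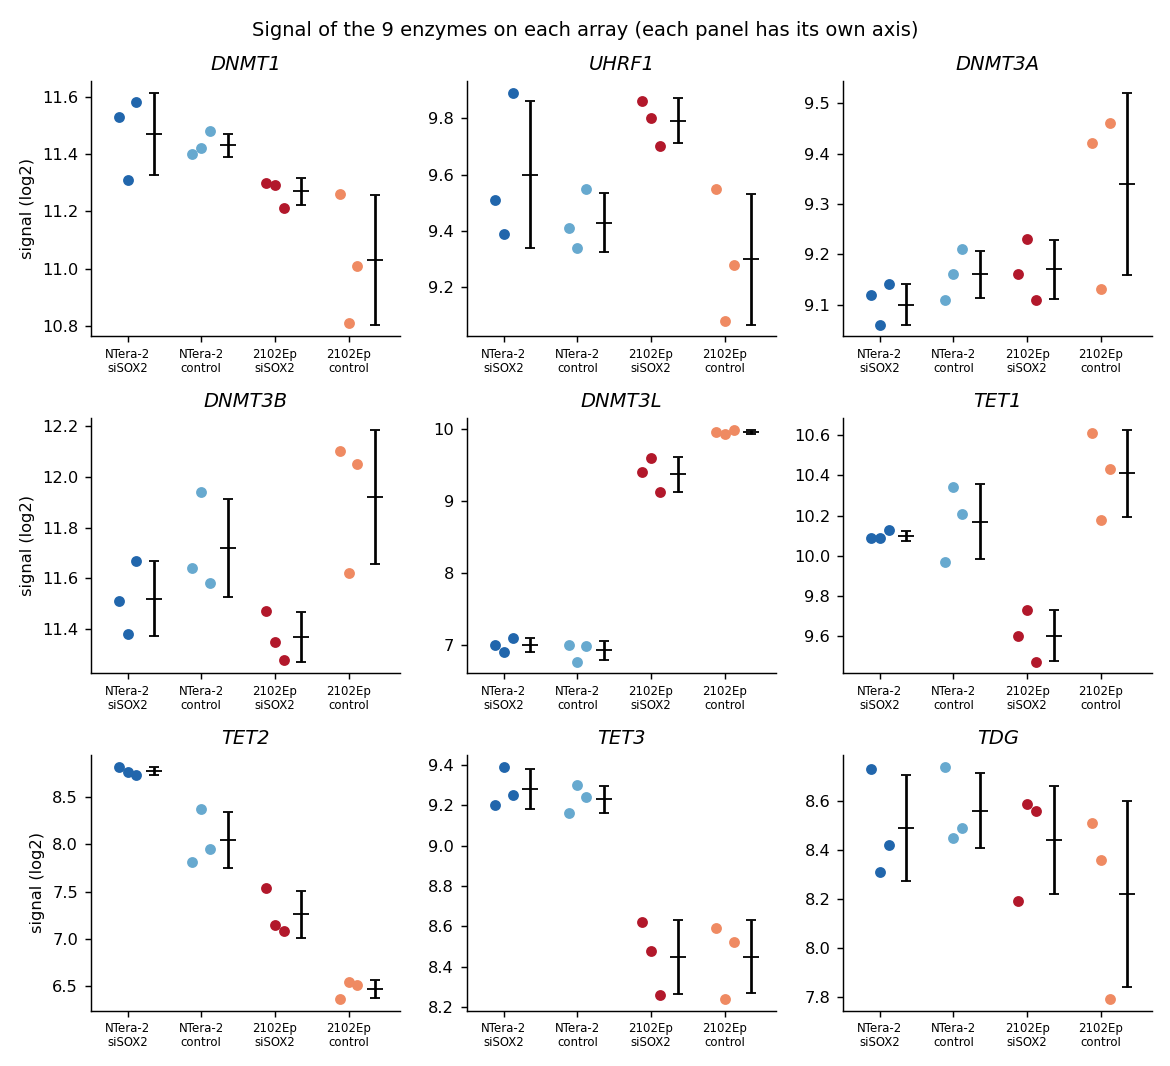
Log2 signal (vertical axis, own scale in each panel) of the 9 enzymes on the 12 arrays: coloured points are single arrays by group and the black bar is the mean with SD (n = 3). TET2 siSOX2 arrays lie above their controls in both lines, and DNMT3L lies at 6.77 to 7.10 in NTera-2, far below 2102Ep.

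Since the samples are bulk RNA, fewer cells of a type and less RNA per cell cannot be told apart in any of these changes. Some markers of the undifferentiated state fell in both lines, and others did not pass. Of 11 embryonal carcinoma markers other than SOX2, the target itself, 7 fell in 2102Ep and 0 rose, where 5.9% of all genes fell. The mean log2 signal of the 11 was 10.71 to 10.88 on 2102Ep siSOX2 arrays, against 11.10 to 11.37 on controls. In NTera-2 5 of the 11 fell and 0 rose, where 1.98% of all genes fell. The mean there was 10.21 to 10.45 after siSOX2, against 10.50 to 10.85 in controls. DPPA2 and ZFP42 were called in 2102Ep only, and LIN28A, LIN28B, PODXL and SALL4 passed in neither line. The changes of these last markers were 0.022, -0.10, 0.10 and 0.071 in 2102Ep and 0.44, 0.16, -0.014 and 0.17 in NTera-2. Beside the rise of TET2, 1 of 6 fibroblast markers rose in 2102Ep (PDGFRB, 0.87), where 6.76% of all genes rose. In NTera-2 3 of 6 rose (COL1A2, PDGFRB and LUM, 0.68, 0.49 and 0.74), where 2.96% of all genes rose, and 0 fell in either line. LUM was read at 3.94 to 4.72 after siSOX2, against 3.53 to 3.84 in NTera-2 controls, near the bottom of the array's range. COL3A1 and DCN stayed near their controls, with changes of 0.010 and -0.044 in 2102Ep and -0.014 and 0.075 in NTera-2. The mean of that list was 7.02 to 7.08 on 2102Ep siSOX2 arrays, against 6.61 to 6.86 on controls, and 6.73 to 6.95 on NTera-2 siSOX2 arrays, against 6.37 to 6.57 on controls. Of 3 endothelial markers CDH5 and PECAM1 fell and VWF rose in 2102Ep, where 5.9% of all genes fell and 6.76% rose. The list mean in 2102Ep was 6.96 to 7.04 after siSOX2, against 7.30 to 7.40 in controls. In NTera-2 0 of the 3 changed (6.38 to 6.67 after siSOX2, against 6.53 to 6.60 in controls), where 4.94% of all genes changed. The part of any of these in the enzyme changes was not tested.

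The response to siSOX2 was then compared between the lines, which share no array but differ in how much SOX2 RNA was lost. The TET1 change was lower in 2102Ep than in NTera-2, with a difference of the log2 changes of -0.74 ± 0.18 (adjusted p = 0.0177). For DNMT3L the difference of the changes was -0.66 ± 0.17 (adjusted p = 0.0275), but its signal in NTera-2 was 6.77 to 7.10 on all arrays, where it is not known whether a fall could have been measured. These were 2 of 9 enzymes, both with the lower change in 2102Ep, where 5.2% of all genes differed (2.53% up, 2.67% down) and 1.66% did so by at least 2-fold. The other 7 differences lay between -0.36 (DNMT3B) and 0.31 (UHRF1) and did not pass. The TET1 call was lost without 2102Ep siSOX2 replicate 3 (-0.67, adjusted p = 0.0597) and without NTera-2 control replicate 1 (-0.64, adjusted p = 0.0558). The DNMT3L call was lost more often. Its adjusted p was 0.0508 with each array centred on its median, 0.0520 without 2102Ep control replicate 1, 0.0546 or 0.0865 without 2102Ep siSOX2 replicate 1 or 3, 0.0832 or 0.0506 without NTera-2 control replicate 2 or 3, and 0.0660 or 0.0738 without NTera-2 siSOX2 replicate 1 or 3.

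Between the lines themselves, DNMT3L, TET2, TET3 and DNMT1 stood apart in control cells. The DNMT3L signal read 7.01, 6.77 and 6.99 in NTera-2 controls, against 9.96, 9.93 and 9.98 in 2102Ep controls (log2 difference -3.03 ± 0.12, adjusted p = 6.25e-12), a signal of 12.2%. The lower quartile of the mean signals of all genes was 6.73. Without detection calls, a ratio to signals near or below it, as for DNMT3L in NTera-2 and TET2 in 2102Ep controls, compares signals and is not an exact ratio of RNA. The TET2 signal was 2.98-fold higher in NTera-2 controls (1.58 ± 0.14, adjusted p = 1.37e-07), TET3 1.72-fold higher (0.78 ± 0.12, adjusted p = 4.11e-05) and DNMT1 1.32-fold higher (0.41 ± 0.12, adjusted p = 0.00965). In all 4 the arrays of the lines did not overlap. The second TET2 probe set gave a difference of 1.07 ± 0.12 (adjusted p = 2.45e-06).

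The remaining enzymes did not pass between control cells, with differences of 0.34 (TDG), 0.13 (UHRF1), -0.18 (DNMT3A), -0.20 (DNMT3B) and -0.23 (TET1). Without 2102Ep control replicate 2, which read low for DNMT3A, DNMT3B and TET1, those 3 passed with -0.28 (adjusted p = 0.0291), -0.36 (adjusted p = 0.0336) and -0.35 (adjusted p = 0.0330). TDG passed when 2102Ep control replicate 1 was left out (0.49, adjusted p = 0.0385), and TET1 passed after another quantile normalization (-0.30, adjusted p = 0.0400). So 4 of 9 enzymes differed, 3 higher and 1 lower in NTera-2, against 42.4% of all genes (21% up, 21.5% down). At 2-fold or more 2 of 9 differed, against 7.76% of all genes, and 4 of 9 had arrays that did not overlap, against 50.5%.

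In siSOX2 cells the same contrast gave a DNMT3L signal of 19.4% (-2.37 ± 0.12, adjusted p = 9.60e-11), TET2 2.86-fold higher (1.52 ± 0.14, adjusted p = 2.11e-07), TET3 1.78-fold higher (0.83 ± 0.12, adjusted p = 2.30e-05) and TET1 1.42-fold higher in NTera-2 (0.51 ± 0.12, adjusted p = 0.00322). TET1 read 10.09 to 10.13 in NTera-2 siSOX2 cells, against 9.47 to 9.73 in 2102Ep siSOX2 cells. DNMT1 did not pass there (0.20 ± 0.12, adjusted p = 0.181), although its arrays did not overlap. These counts, 3 of 9 higher and 1 lower in NTera-2, stood beside 41.6% of all genes (23.1% up, 18.5% down). At 2-fold or more 2 of 9 differed, against 7.65%, and 5 of 9 had arrays that did not overlap, against 53.2%. These contrasts use the same arrays as the knock-downs, and their difference is the difference in response given above.

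**Figure D3:**
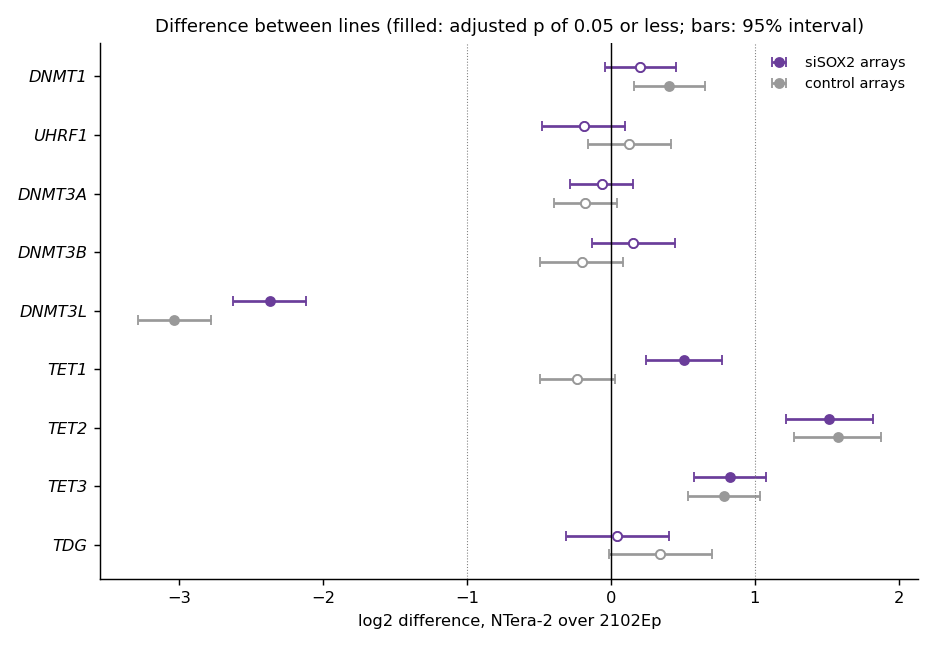
Log2 difference (horizontal axis, NTera-2 over 2102Ep) of each enzyme (rows) in siSOX2 cells (purple) and control cells (grey), with its 95% interval; filled points passed an adjusted p of 0.05. DNMT3L lies at -2.37 and -3.03, TET2 at 1.52 and 1.58, and TET1 on opposite sides of 0 at 0.51 and -0.23.

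Over all 12 arrays the enzymes varied to very different degrees. The SD of the log2 signal was 1.43 for DNMT3L and 0.916 for TET2, higher than for 99.5% and 97.9% of all genes, and 0.439 for TET3. It was 0.125 for DNMT3A, at the 9.79 percentile. The arrays form 2 clusters by line, so likeness between genes was read within each line of 6 arrays. By r over all arrays the 3 genes most like TET2 were GALNT11, FSTL1 and TP53BP2. Within NTera-2 they correlated with TET2 at 0.95, 0.96 and 0.93, and within 2102Ep at 0.96, 0.93 and 0.90. Those most like DNMT3L were SLC5A9, DDOST and SPINT2, with 0.64, 0.79 and 0.36 within NTera-2 and 0.86, 0.80 and 0.94 within 2102Ep. For TET3 they were PODXL, CPSF7 and LINGO1, with 0.13, 0.71 and 0.71 within NTera-2 and 0.93, 0.94 and 0.89 within 2102Ep. The 6 arrays of a line share the 2 treatments, so these values describe the arrays and say nothing of shared function.

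Genes that work with the enzymes were described next, from lists chosen with earlier results of these data known. Of 16 partners in maintenance and recruitment, all measured, 3 fell and 2 rose in 2102Ep, and 3 fell and 0 rose in NTera-2 (medians -0.084 and -0.010). The shares of all genes that changed, 12.7% in 2102Ep and 4.94% in NTera-2, stand beside these counts and those of the lists that follow. PRDM14, a repressor of de novo methylation in mouse pluripotent cells, read 7.41, 7.31 and 7.22 in 2102Ep after siSOX2, against 9.92, 9.77 and 9.38 in controls. It fell by 2.38 in 2102Ep (adjusted p = 2.24e-09) and its change was -1.5 in NTera-2 (adjusted p = 2.81e-06), where it read 8.52, 8.18 and 8.60, against 9.84, 10.06 and 9.89. PRDM14 thus fell over 2-fold in both lines, and the fall was larger in 2102Ep (difference -0.88 ± 0.20, adjusted p = 0.0118).

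HELLS, a chromatin remodeller needed for normal DNA methylation, fell in both lines too, by 1.02 in 2102Ep (adjusted p = 1.72e-05) and by 0.54 in NTera-2 (adjusted p = 0.0165). The NTera-2 call was lost without NTera-2 control replicate 2 (adjusted p = 0.0614) or 3 (adjusted p = 0.0736) and without NTera-2 siSOX2 replicate 1 (adjusted p = 0.0603) or 2 (adjusted p = 0.0803). CDCA7L, a paralogue of the HELLS partner CDCA7, fell in 2102Ep to 9.18, 9.46 and 8.97, against 10.87, 10.83 and 10.93 in controls (-1.68 ± 0.12, adjusted p = 3.15e-08). In NTera-2 it read 11.12, 10.97 and 11.26 after siSOX2, against 11.24, 11.14 and 11.33 in controls (-0.12, adjusted p = 0.756), and the responses differed (-1.56 ± 0.17, adjusted p = 2.03e-05). CXXC5, a CG-binding protein that, like its relative CXXC4, interacts with TET2, rose in 2102Ep (0.77 ± 0.092, adjusted p = 1.23e-05) and its change was 0.14 in NTera-2 (adjusted p = 0.548), with a difference in response of 0.63 ± 0.13 (adjusted p = 0.00691). UHRF2, the paralogue of UHRF1, rose in 2102Ep (0.68 ± 0.11, adjusted p = 0.000418) and was 0.32 in NTera-2 (adjusted p = 0.146).

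DPPA3, which in mouse oocytes and zygotes protects DNA from demethylation and keeps UHRF1 off chromatin, fell in NTera-2 to 8.62, 8.47 and 8.80, against 9.65, 10.83 and 10.09 in controls (-1.57 ± 0.23, adjusted p = 0.000319). In 2102Ep it read 12.60, 12.93 and 12.85 after siSOX2, against 13.37, 13.54 and 12.81 in controls (-0.44, adjusted p = 0.270). The difference in response did not pass (1.12 ± 0.32, adjusted p = 0.054), so a fall particular to NTera-2 was not shown. Another, dimmer DPPA3 probe set passed neither in NTera-2 (-0.96 ± 0.40, adjusted p = 0.260) nor in 2102Ep (-0.89 ± 0.40, adjusted p = 0.193). On it the responses differed by 0.064 (adjusted p = 0.988). DPPA3 has near-identical copies in the genome, so its probe sets are uncertain.

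Of 10 genes listed as readers of methylated CG sites or as their relatives 9 were measured, and 1 changed in 2102Ep. ZBTB38, a zinc finger protein that binds methylated DNA, rose to 10.02, 9.84 and 9.74, against 9.12, 8.87 and 8.85 in 2102Ep controls (0.92 ± 0.12, adjusted p = 2.51e-05), and its second probe set rose by 0.61 (adjusted p = 0.00190). In NTera-2 none of the 9 passed, with ZBTB38 at 0.046 (adjusted p = 0.928), MBD5 at 0.36, ZBTB33 at 0.37 and ZBTB4 at 0.19. The medians of the list were 0.11 in 2102Ep and 0.12 in NTera-2.

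Of 20 genes of deamination and base excision repair 17 were measured. In 2102Ep 3 rose, all of the GADD45 family, which has been linked to repair-based demethylation: GADD45G by 0.86 (adjusted p = 8.52e-05), GADD45B by 0.52 (adjusted p = 0.00277) and GADD45A by 0.34 (adjusted p = 0.0414). GADD45G read 8.62, 8.54 and 8.73 after siSOX2, against 7.86, 7.94 and 7.50 in controls. NEIL1, a glycosylase, fell by 0.65 (adjusted p = 0.000775), and PARP1, a sensor of strand breaks, fell by 0.35 (adjusted p = 0.0324). None of the 17 passed in NTera-2, where GADD45G read 7.73, 7.86 and 7.98 after siSOX2, against 8.02, 8.24 and 8.05 in controls (-0.24, adjusted p = 0.383). The response of GADD45G differed between the lines (1.11 ± 0.17, adjusted p = 0.000647). Leaving out 1 of 7 arrays in turn ended the call of GADD45A (adjusted p up to 0.119) and 1 of 6 that of PARP1 (adjusted p up to 0.125), among them every 2102Ep siSOX2 array for both. APOBEC3G, a cytidine deaminase, did not pass after siSOX2. Its signal was lower in NTera-2 controls, at 5.82, 6.45 and 6.11, against 8.08, 8.05 and 7.44 in 2102Ep controls (-1.73 ± 0.18). The NTera-2 signals lie below 6.73, the lower quartile of the mean signals of all genes, so this is not an exact ratio of RNA.

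Genes that supply the methyl donor and the TET cofactor changed little in number. Of 15 listed genes 12 were measured, and SHMT1, an enzyme of one-carbon metabolism, rose in 2102Ep (0.55 ± 0.14, adjusted p = 0.0118), a call that was lost without 2102Ep control replicate 2 (adjusted p = 0.0503) or 2102Ep siSOX2 replicate 2 (adjusted p = 0.0769). NNMT, which consumes methyl groups, came next at 0.32 (adjusted p = 0.0501), followed by MAT2B at -0.53 (adjusted p = 0.0730). None of the 12 passed in NTera-2, where MTR was at 0.29 and SHMT2 at -0.15.

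Germline genes whose promoters are kept silent by DNA methylation in somatic cells were read as a group. Of 20 listed genes 18 were measured, and in 2102Ep 0 rose and 4 fell, with a list mean of 5.56 to 5.75 after siSOX2, against 5.78 to 5.85 in controls (6.76% of all genes rose and 5.9% fell). BRDT, a testis bromodomain protein, fell to 6.92, 7.18 and 6.90, against 8.15, 7.72 and 7.45 in controls (-0.77 ± 0.18, adjusted p = 0.00757). MAEL, a piRNA pathway gene, fell by 0.71 (adjusted p = 0.0113), RNF212, a meiotic crossover gene, fell by 0.39 (adjusted p = 0.0331), and TDRD1, another piRNA gene, fell by 0.40 (adjusted p = 0.0494). MAEL (4.90 to 5.52 after siSOX2, against 5.55 to 6.41 in 2102Ep controls) and TDRD1 (4.87 to 5.05 after siSOX2, against 5.15 to 5.49 in 2102Ep controls) lay low in the array's range, at the 7.15 and 4.41 percentiles of mean signal. STK31 of the same list went the other way in 2102Ep and just missed a call (0.43, adjusted p = 0.0509). It read 4.96 to 5.23 after siSOX2, against 4.61 to 4.84 in 2102Ep controls, also low, at the 4.64 percentile. The BRDT call held whichever array was left out. MAEL lost its call without 2102Ep control replicate 2 (-0.47, adjusted p = 0.0512) or 2102Ep siSOX2 replicate 3 (adjusted p = 0.0780), RNF212 without any of 5 arrays (adjusted p up to 0.145) and TDRD1 without any of 10 (adjusted p up to 0.164). None of the 18 passed in NTera-2, where DAZL, a germ cell RNA-binding protein, came closest (0.42, adjusted p = 0.0577), followed by MAGEA4 (0.29) and RNF212 (-0.26). Between control cells PIWIL2, a germline piRNA-binding protein, read 9.94 to 10.23 in NTera-2, against 5.20 to 5.59 in 2102Ep, and BRDT read 4.87 to 5.23 in NTera-2, against 7.45 to 8.15 in 2102Ep. The lower signals lie below the lower quartile of 6.73, so no exact ratio of RNA is given. PIWIL2, UHRF2, PARP1, TDRD1, STK31 and the marker genes of other states lie outside the naming rule and were named after their values were seen.

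DNA replication genes were read because DNMT1 and UHRF1 follow the cell cycle. Of 20, all measured, TYMS rose by 0.30 (adjusted p = 0.0383) and CCNE2 fell by 0.73 (adjusted p = 0.0233) in 2102Ep, and 0 changed in NTera-2. Among those that did not pass were CDT1 at -0.26 in 2102Ep, and MKI67 at 0.23, TYMS at 0.16 and MCM2 at 0.15 in NTera-2. Their mean log2 signal was 9.93 to 10.07 on 2102Ep siSOX2 arrays, against 9.91 to 10.11 on controls, and 10.34 to 10.55 on NTera-2 siSOX2 arrays, against 10.38 to 10.44 on controls. In control cells 11 of the 20 were higher in NTera-2 and 0 lower, where 21% of all genes were higher and 21.5% lower, with a median difference of 0.42 beside -0.064 over all genes. DNMT1 was higher in NTera-2 controls as well, and the part of replication in that was not tested. TYMS lost its call without any of 10 arrays (adjusted p up to 0.151), and CCNE2 without 2102Ep control replicate 2 (-0.45, adjusted p = 0.113) or 2102Ep siSOX2 replicate 1 (adjusted p = 0.0612) or 3 (adjusted p = 0.107).

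**Figure D4:**
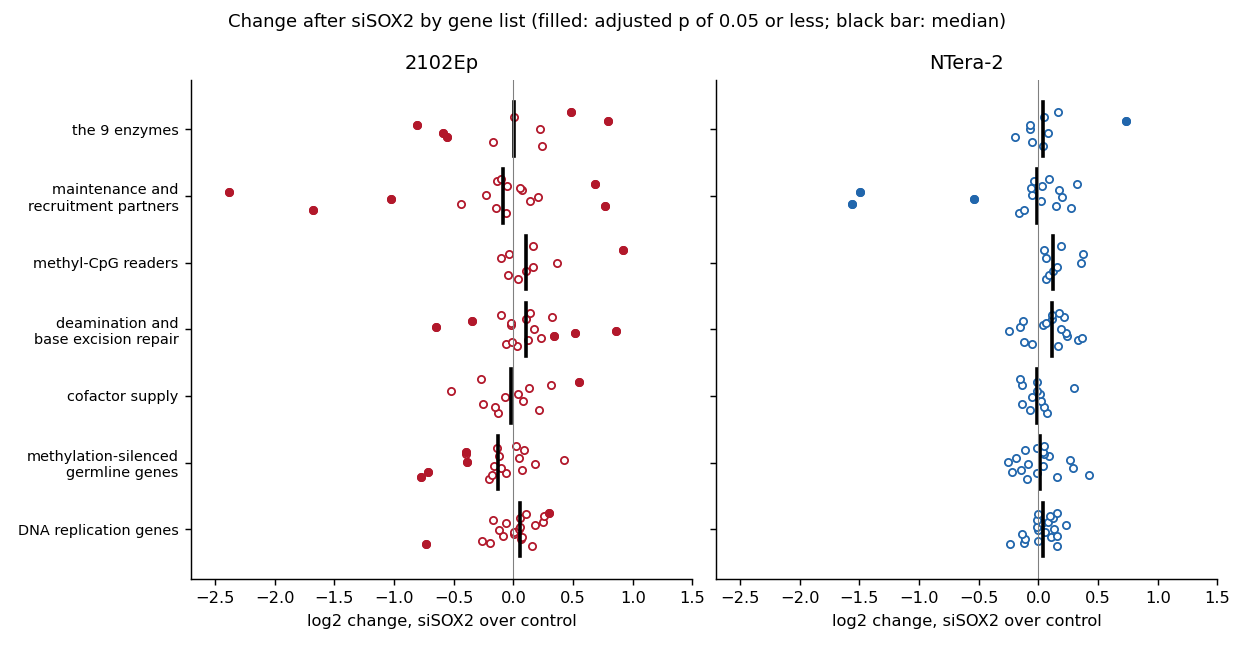
Log2 change (horizontal axis, siSOX2 over control) of each gene (points) in the 9 enzymes and 6 related lists (rows), in 2102Ep (left) and NTera-2 (right); filled points passed an adjusted p of 0.05 and black bars are list medians. List medians stay between -0.13 and 0.12, and the points farthest from 0 are partners: PRDM14 at -2.38 and CDCA7L at -1.68 in 2102Ep, and DPPA3 at -1.57 and PRDM14 at -1.5 in NTera-2.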

How the data were processed

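RNA from 12 cultures was hybridised to Affymetrix Human Gene 1.0 ST arrays. The deposited log2 values had been made by the authors with robust multi-array averaging in the manufacturer's software, with no version stated in the sources read here. Log base 2 was inferred from the range, 1.57 to 14.98. In the submitters' processing notes limma is listed, again with no version.

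Of 32321 probe sets, 19158 were assigned to 1 gene by the platform annotation, 1388 to several and 11775 to none. Symbols were updated through RefSeq (GRCh38.p14) for 18376 of 18404 genes, and 28 kept the array's symbol. Where a gene had several probe sets (637 genes), the brightest by mean stood for it. The files hold no detection calls, and 3 arrays per group limit the precision (median SE of a log2 change 0.121).

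All 4 groups entered 1 linear model in limma 3.58.1 (R 4.3.3) with empirical Bayes moderation, and p-values were adjusted by the Benjamini-Hochberg method over all genes, or over all probe sets where a single probe set is given. Called genes had an adjusted p of 0.05 or less. Errors are SE and intervals are 95%, both on the log2 scale. An exact permutation test of 3 against 3 arrays cannot go below 0.1 and was not used. Comparisons were siSOX2 against control within 2102Ep and within NTera-2, 2102Ep minus NTera-2 of these changes, and NTera-2 against 2102Ep in control and in siSOX2 cells. They share arrays.

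Tested on simulated data for siSOX2 in 2102Ep over 18404 genes, the model recovered 61% of 100 genes changed by 0.6 (log2) and 100% of 100 changed by 1.5, with 9 false calls. The simulation drew independent noise and changed only these genes, while 2330 genes (12.7%) were called in the real contrast. The adjusted p depends on how many genes change, so these shares do not give the detection rate in the real data. The members and gene lists were chosen with earlier results of these data known. Named were all 9 enzymes, SOX2, list genes called at 2-fold, per list and knock-down the 3 genes lowest in adjusted p, and the 3 genes most correlated with each of the 3 most variable enzymes. Alternatives were other normalizations, probe set rules, a signal filter, a trended prior, a replicate block, fits on the compared groups alone, a 2-fold threshold and each array left out. Figures were drawn with matplotlib 3.10.9 (Python 3.11.15, pandas 2.3.3).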

Additional observations from a re-analysis of the deposited data

Results flagged for a closer look

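The change after siSOX2 differed between 2102Ep and NTera-2, by a test of the difference itself, for 9 of the genes described. Values are the log2 change in 2102Ep minus that in NTera-2. The difference was -2.49 for SOX2 itself, so the lines also differ in how much SOX2 RNA remained. SOX2 protein is not analysed here.

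Among the enzymes it was -0.738 for TET1 (adjusted p = 0.0177) and -0.664 for DNMT3L (adjusted p = 0.0275). DNMT3L read 6.77 to 7.01 in NTera-2 controls, against 9.93 to 9.98 in 2102Ep controls, and it is not known whether a fall could have been measured in NTera-2.

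In the related lists it was -1.56 for CDCA7L, -0.881 for PRDM14, 0.627 for CXXC5, 0.875 for ZBTB38, 1.11 for GADD45G and -0.933 for BRDT. The other ZBTB38 probe set differed by 0.50 (adjusted p = 0.116). The BRDT difference (adjusted p = 0.0444) lost its call in 8 of 12 fits that left out 1 array (adjusted p up to 0.120). In NTera-2 BRDT read 4.89 to 5.61 after siSOX2, against 4.87 to 5.23 in controls. It is not known whether a fall of BRDT could have been measured there. With 3 arrays per group, single arrays were not tested for standing apart from their group.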

How the results depend on the processing

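Enzymes called were 5 in 2102Ep, 1 in NTera-2, 2 for the difference in response, 4 between controls and 4 between siSOX2 cells. A 2-fold threshold left 0, 0, 0, 2 and 2 in the same order. Leaving out genes below the median signal (8.03) removed TET2 and left 0 in NTera-2, and centring each array on its median left 1 for the difference. Leaving out 1 array gave 4 to 5, 1 to 1, 0 to 2 (0 without 2102Ep siSOX2 replicate 3), 4 to 7 (7 without 2102Ep control replicate 2) and 4 to 4. Over 841 values of single enzymes under alternatives, 799 kept direction and call, 17 lost and 5 gained it, and 20 changed sign. None of those 20 belonged to a called change.

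With each array left out in turn, the sign changed for DNMT1 (-0.0146 to 0.122), TET1 (-0.171 to 0.0121), TET3 (-0.00604 to 0.0888) and TDG (-0.195 to 0.0149) in NTera-2. It also changed for TET3 in 2102Ep (-0.0983 to 0.102), for the difference in response of TET2 (-0.107 to 0.177) and TET3 (-0.148 to 0.0518), and for TDG between siSOX2 cells (-0.0848 to 0.13). Quantile normalization gave TET3 -0.0109 in 2102Ep and -0.00011 in NTera-2, and TDG -0.00394 between siSOX2 cells. Centring gave a TET3 difference of 0.00668, and the mean of both probe sets gave UHRF1 -0.00161 between controls.

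SOX2 kept direction and call in all 38 alternatives, at -3.24 to -2.99 in 2102Ep and -0.666 to -0.607 in NTera-2 with 1 array left out. With the replicate number as a block the counts stayed 5, 1, 2, 4 and 4, and SOX2 was -3.14 and -0.645, while GADD45A (adjusted p = 0.0645), TYMS (0.0596), TDRD1 (0.0715) and the BRDT difference (0.0653) lost their calls. Same-numbered arrays deviated together at r of 0.05 to 0.099 in 2102Ep and -0.13 to 0.064 in NTera-2, so the numbers were not taken as pairs. Fits on the compared groups alone were not available for the difference. In 2102Ep they ended the calls of GADD45A (adjusted p = 0.0737), PARP1 (0.107), RNF212 (0.1), TDRD1 (0.0705) and TYMS (0.126). Centring and quantile normalization ended those of CCNE2 (0.0507 and 0.0504) and TDRD1 (0.051 and 0.0596) in 2102Ep, and of the BRDT difference (0.0759 and 0.0685). Quantile normalization also ended the PARP1 call in 2102Ep (0.0698), and the trended prior that of TDRD1 (0.0662). The cause of these shifts was not tested.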
